A study of Oryza sativa Indica Group with 8 samples.

Results

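Kinesins are motor proteins that move along microtubules or take them apart, and plants have many of them because they build the spindle and the phragmoplast, the array that lays down the new cell wall, without centrosomes. Cyclins are the regulatory partners of cyclin-dependent kinases. A-type and B-type cyclins act with these kinases through DNA synthesis and mitosis, D-type cyclins act at the entry into the cycle by way of the retinoblastoma-related protein, and H, L and T types pair with kinases that act on other kinases, on splicing or on transcription. In roots, dividing cells lie mainly in the meristem at the tip and in young laterals.

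The members were every rice gene whose symbol or synonym, with or without the prefix Os, was KIN followed by a number or CYC followed by a class letter and numbers. By name 64 genes matched, and 57 of the 17905 genes with a probe set assigned to a single gene were members. They comprised 33 kinesins, 23 cyclins and KIN17 (LOC4333285), which carries a matching name but is a DNA- and RNA-binding zinc-finger protein and not a motor, and is given apart. The other 7 names (CYCA3-1, CYCB1-5, CYCD2-1, KIN12F, KIN14D, KIN14P and the copy of CYCT1-1 at LOC4328207) had no such probe set and no value here. Each gene was read by the probe set with the highest mean over the arrays. Levels are normalized intensities on a linear scale, and a probe set's brightness also depends on its probes, so brightness served to choose probe sets and genes to name, not to compare expression between genes.

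The arrays measured total RNA of whole roots from hydroponically grown rice seedlings of the Indica group, 2 arrays each of P deficiency (phosphorus withheld), Fe deficiency (iron withheld), P and Fe deficiency together (the combined deficiency) and a control labelled P+, 8 arrays in all. The labels give 10 days of hydroponic growth and seedlings of 5 days, and the design text of the series gives 7 days of treatment. No source here sets them in one timeline. Whether the paired arrays of a group stem from independent plants is not labelled, and the p-values therefore speak only of the spread among the arrays, which may be technical.

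All 4 groups are roots by label. The silicon transporter gene Lsi1, a marker of root endodermis and exodermis, was at 17450 and 16478 in P deficiency, 26017 and 26682 in Fe deficiency, 17389 and 18783 with both withheld and 28312 and 25591 in the control. The deposited intensities had medians of 62.2 and 62.9 in P deficiency, 53.3 and 48.1 in Fe deficiency, 63.9 and 68.9 with both withheld and 48.0 and 54.4 in the control. The median after normalization was 57.7, and 55 of the 57 members averaged at or above it. CYCB1-3 and CYCF2-2 averaged below it.

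Withholding P was followed by higher levels of many kinesins and mitotic cyclins. Of the 57 members 19 rose and 2 fell in P deficiency against the control (limma, adjusted p under 0.05 over all 57194 probe sets), where 8.28% of all probe sets were called, 4.23% higher and 4.05% lower. The share of members that rose was 33.3%, against 7.44% that rose among the probe sets at or above the median level. The median log2 change of the members was 0.64, beside -0.02 over all probe sets. Both P-deficient arrays lay above both control arrays for 40 members (70.2%) and below them for 9 (15.8%). The shares were 24.3% and 26.4% of all probe sets, and 31.1% and 34.8% of those at or above the median level. These are whole roots, so more or fewer cells of a type and more or less RNA per cell cannot be told apart. The count rests on few arrays, since it was 0 without either P-deficient array (limma, 30 and 36 members at an unadjusted p under 0.05), 3 and 4 without control array 1 or 2, and 7 to 11 without any one of the other 4 arrays. With arrays centred on their medians in place of quantile normalization, which moves the median of all probe sets to -0.15, 9 members rose and 3 fell. Without quantile normalization that median was 0.08.

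Among the kinesins 11 of 33 rose and 2 fell, and the median log2 change was 0.71. The largest rises were in the KIN14 subfamily, whose characterised members walk toward the minus ends of microtubules. KIN14B (LOC9267695) was at 823 and 854 in P deficiency, against 149 and 227 in the control. It rose 4.27-fold (log2 change 2.10 ± 0.26 SE, limma adjusted p = 0.0127), and both P-deficient arrays lay far above both control arrays, which themselves differed more than the P-deficient pair did. KIN14C (LOC4326167) was at 1151 and 1320 in P deficiency, against 391 and 412 in the control. It rose 2.99-fold (log2 change 1.58 ± 0.15 SE, limma adjusted p = 0.00869), with each pair of arrays close together. KIN14I (LOC4337322), also named KCBP for kinesin-like calmodulin-binding protein, was at 719 and 647 in P deficiency, against 308 and 243 in the control, a 2.41-fold rise (limma adjusted p = 0.0148). The motor's calmodulin-binding domain is known from Arabidopsis to let calcium release it from microtubules.

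KIN14E (LOC4331382) was at 936 and 632 in P deficiency, against 289 and 315 in the control (2.47-fold, limma adjusted p = 0.0354). KIN14F (LOC4332578) was at 1585 and 1756 in P deficiency, against 812 and 820 in the control (2.02-fold, limma adjusted p = 0.0164). KIN14H (LOC4337093) was at 2802 and 2459 in P deficiency, against 1388 and 1415 in the control (1.86-fold, limma adjusted p = 0.0203). In none of these did the groups overlap, although the 2 P-deficient arrays of KIN14E lay far apart. KIN14 was also the subfamily of both members that fell. KIN14M (LOC4341280) was at 1409 and 1257 in P deficiency, against 2795 and 2633 in the control, and was 2.03-fold lower (log2 change -1.02 ± 0.15 SE, limma adjusted p = 0.0186). KIN14K (LOC4339353) was at 166 and 176 in P deficiency, against 298 and 294 in the control, and was 1.67-fold lower (limma adjusted p = 0.0272). The value of KIN14K came from an x_at probe set, a class whose probes can match several transcripts. A second probe set had a log2 change of -0.25 (limma adjusted p = 0.547). The third had -0.18 (limma adjusted p = 0.851) but averaged 13.8, too dim to be read. The fall of KIN14K therefore rests on 1 probe set of 3, and the second did not pass.

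The 14 KIN14 genes spanned log2 changes of -1.02 to 2.10 with a median of 0.74, 6 up and 2 down. KIN14Q (LOC4352456), the KCH1 kinesin whose calponin-homology domain binds actin, was at 238 and 267 in P deficiency, against 152 and 201 in the control (log2 change 0.49, limma adjusted p = 0.215), and did not pass. The KIN7 subfamily, which holds the NACK kinesins of the phragmoplast, was more even. In all 7 of its genes both P-deficient arrays lay above both control arrays, as in 24.3% of all probe sets and 31.1% of those at or above the median level. KIN7J averaged 73.2, not far above the median level, and was too variable to be read (log2 change 0.40 ± 0.68 SE). That error draws on the spread in all 4 groups. The other 6 had log2 changes of 0.56 to 1.04, yet 1 passed, KIN7K (LOC4349100). It was at 1545 and 1690 in P deficiency, against 652 and 923 in the control (2.06-fold, limma adjusted p = 0.0357). KIN7F (LOC4336528) was at 4052 and 3392 in P deficiency, against 2538 and 2341 in the control (log2 change 0.60, limma adjusted p = 0.0985). KIN7A (LOC4323990), the rice NACK-type kinesin also named DBS1, was at 156 and 301 in P deficiency, against 119 and 126 in the control (log2 change 0.75, limma adjusted p = 0.214), a pair of P-deficient arrays too unlike each other for the change to pass.

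**Figure D1:**
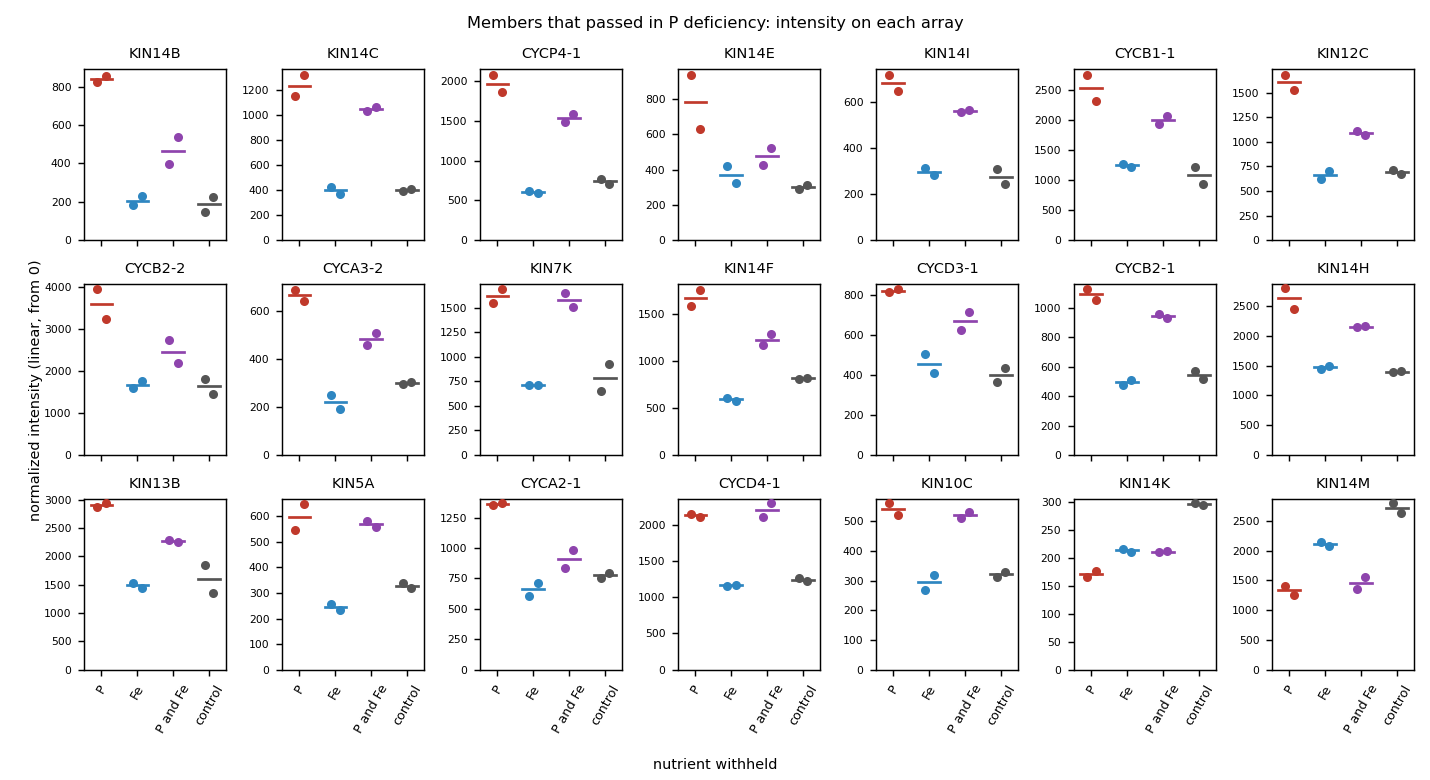
Normalized intensity (linear axis from 0, 1 panel per gene with its own range) of the 21 members that passed in P deficiency against the control, 1 point per array, with a bar at the mean of the 2 arrays of each group and the nutrient withheld along the horizontal axis. KIN14M and KIN14K stand highest in the control, and in every other gene shown both P-deficient arrays lie above both control arrays.

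In the other kinesin subfamilies the members that rose did so by 1.65-fold to 2.29-fold. KIN12C (LOC4333349), of a subfamily whose Arabidopsis members sit at the phragmoplast midline, was at 1684 and 1527 in P deficiency, against 708 and 677 in the control. It rose 2.29-fold (log2 change 1.19 ± 0.14 SE, limma adjusted p = 0.0117) with tight pairs on both sides, while KIN12E had a log2 change of 0.33 and did not pass. KIN5A (LOC9268593), of the bipolar motors that push spindle poles apart, was at 547 and 648 in P deficiency, against 338 and 318 in the control (1.78-fold, limma adjusted p = 0.0316). KIN5C (LOC9271005) was at 1455 and 1196 in P deficiency, against 906 and 703 in the control (log2 change 0.71, limma adjusted p = 0.0785). In both KIN5 genes the groups were apart, and the wider spread of KIN5C left it outside the threshold.

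KIN13B (LOC4326684), of a subfamily that takes microtubules apart in animals, was at 2872 and 2937 in P deficiency, against 1856 and 1353 in the control (1.82-fold, limma adjusted p = 0.0474). Its value came from an x_at probe set, the class whose probes can match several transcripts. KIN13A (LOC4337845), also named SRS3 after a small round seed mutant, was at 2928 and 3182 in P deficiency, against 1722 and 2009 in the control (log2 change 0.71, limma adjusted p = 0.0514). The probe sets used for the pair stood on either side of the threshold with like changes, but a second probe set of KIN13A had a log2 change of 0.41 (limma adjusted p = 0.221), and of -0.043 in the combined deficiency against 0.51 in the one used. KIN10C (LOC4339007) was at 562 and 520 in P deficiency, against 313 and 330 in the control (1.65-fold, limma adjusted p = 0.0439). KIN10B (LOC4335606) had a log2 difference of 0.81 (limma adjusted p = 0.0774), and KIN10A (LOC4331094), also named STD1 after a stemless dwarf mutant, one of 1.102 (limma adjusted p = 0.155). The difference was larger on average in KIN10A than in KIN10C, but its arrays spread further, 888 and 624 in P deficiency against 278 and 412 in the control.

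KIN4A (LOC4346402), the BC2/GDD1 kinesin known in rice for ordered cellulose microfibrils and cell elongation, was at 4862 and 4356 in P deficiency, against 3096 and 2823 in the control (log2 change 0.64, limma adjusted p = 0.0531). KIN8B (LOC4334272) was at 360 and 421 in P deficiency, against 246 and 279 in the control (log2 change 0.54, limma adjusted p = 0.129). Neither passed, although both P-deficient arrays were the higher ones. The probe set used for KIN8B was also of the x_at class. KIN1 (LOC4344521), the PSS1 kinesin needed for male meiosis in rice, was at 783 and 927 in P deficiency, against 1048 and 1173 in the control (log2 change -0.37, limma adjusted p = 0.224). It was 1 of 3 kinesins, with KIN14K and KIN14M, in which both P-deficient arrays lay below both control arrays. KIN17 was at 1243 and 1109 in P deficiency, against 1124 and 1002 in the control, with overlapping arrays (log2 change 0.14, limma adjusted p = 0.645).

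Among the cyclins 8 of 23 rose and none fell, and the median log2 change was 0.38 (0.21 with a pseudocount of 64). The classes differed in their counts. Of the 4 B-type cyclins, the partners of mitotic kinases, 3 rose. CYCB1-1 (LOC4327547) was at 2761 and 2318 in P deficiency, against 1217 and 944 in the control, a 2.34-fold rise (log2 change 1.23 ± 0.18 SE, limma adjusted p = 0.0195). CYCB2-2 (LOC4342121) was at 3953 and 3251 in P deficiency, against 1815 and 1463 in the control, a 2.19-fold rise (limma adjusted p = 0.0308). CYCB2-1 (LOC4336670) was at 1130 and 1058 in P deficiency, against 568 and 516 in the control, a 1.99-fold rise (limma adjusted p = 0.0165). In each of them the lower P-deficient array was well above the higher control array. A second probe set of CYCB2-2 had a log2 change of 1.38 (limma adjusted p = 0.0470), beside 1.13 in the one used. CYCB1-3 (LOC4326914), a dim probe set whose gene also carries the name CycB1-1, was at 49.2 and 61.7 in P deficiency, against 30.1 and 48.7 in the control, and did not pass (log2 change 0.38, limma adjusted p = 0.498).

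Of the 3 A-type cyclins 2 rose. CYCA3-2 (LOC4352642) was at 685 and 641 in P deficiency, against 293 and 302 in the control (2.16-fold, limma adjusted p = 0.0205). CYCA2-1 (LOC4352280) was at 1351 and 1365 in P deficiency, against 751 and 798 in the control (1.74-fold, limma adjusted p = 0.0400). CYCA1-4 (LOC4338177) ran the other way, at 390 and 412 in P deficiency, against 655 and 626 in the control, and lay just outside the threshold (log2 change -0.66, limma adjusted p = 0.0561).

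The 9 D-type cyclins were mixed, with 2 that rose and a median log2 change of 0.16 in a range of -0.51 to 1.04. CYCD3-1 (LOC4340499) was at 812 and 829 in P deficiency, against 363 and 435 in the control (2.02-fold, limma adjusted p = 0.0284). CYCD4-1 (LOC4347313) was at 2140 and 2112 in P deficiency, against 1259 and 1225 in the control (1.70-fold, limma adjusted p = 0.0268). Both had replicate pairs much closer to each other than the groups were. CYCD6-1 (LOC4343569), whose Arabidopsis namesake acts in the formative division that makes the root's ground tissue, was at 359 and 335 in P deficiency, against 204 and 126 in the control (log2 change 1.04, limma adjusted p = 0.0626). CYCD5-3 (LOC4331985) was at 421 and 461 in P deficiency, against 748 and 534 in the control (log2 change -0.51, limma adjusted p = 0.194). CYCD5-2 (LOC4352668) depended on its probe set, with a log2 change of 0.03 (limma adjusted p = 0.937) in the brighter one used and 1.04 (limma adjusted p = 0.0483) in the other.

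The P-type cyclins resemble PHO80, the cyclin of the phosphate-responsive kinase of budding yeast. Of the 3 measured 1 rose, CYCP4-1 (LOC4349405), the cyclin with the largest rise of the 23. It was at 2075 and 1863 in P deficiency, against 767 and 712 in the control, a 2.62-fold rise (log2 change 1.39 ± 0.14 SE, limma adjusted p = 0.00908). CYCP2-1 (LOC4336603) was at 850 and 708 in P deficiency, against 544 and 358 in the control (log2 change 0.79, limma adjusted p = 0.0994). CYCP3-1 (LOC4338711) was at 1861 and 1757 in P deficiency, against 2291 and 2150 in the control (log2 change -0.29, limma adjusted p = 0.263). The class therefore held a clear rise, a higher value that did not pass and a lower value that did not pass.

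The T, L, H and F classes had 1 measured member each, and none passed. CYCT1-1 (LOC4352229), a partner of the kinases that act on RNA polymerase, was at 4088 and 3783 in P deficiency, against 4720 and 5102 in the control (log2 change -0.32, limma adjusted p = 0.260). CYCL1-1 (LOC4325450) was at 1707 and 1565 in P deficiency, against 2097 and 1905 in the control (log2 change -0.29, limma adjusted p = 0.293). CYCH1-1 (LOC4334040), the partner of the CDK-activating kinase, was at 1671 and 1250 in P deficiency, against 1730 and 1455 in the control, with overlapping arrays (log2 change -0.13, limma adjusted p = 0.759). CYCF2-2 (LOC4329915) was dim on every array, between 1.70 and 41.8, and its order across groups cannot be read.

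**Figure D2:**
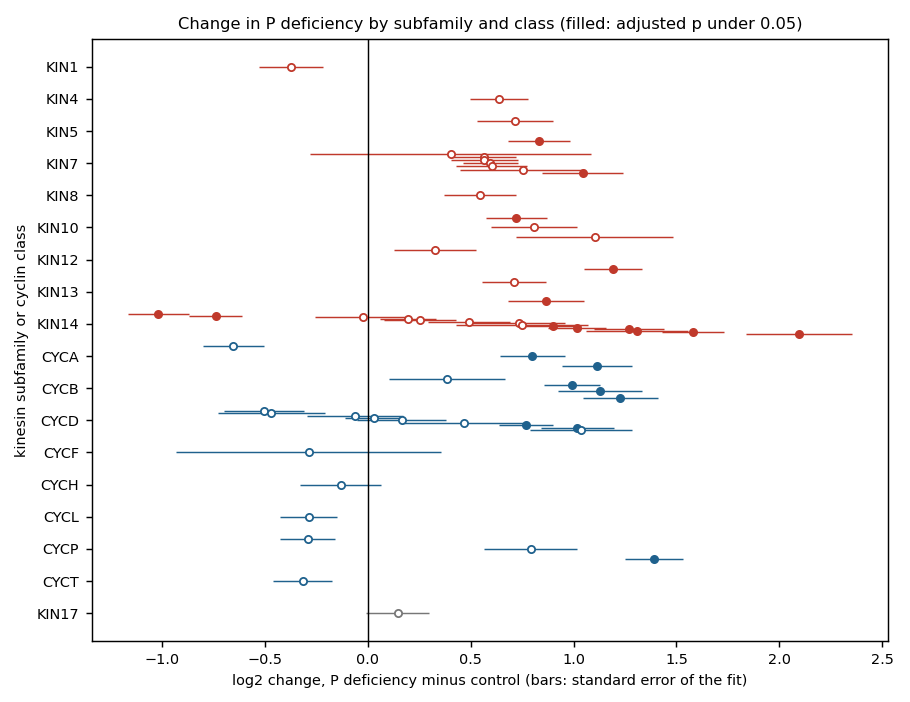
Log2 change in P deficiency minus control of each member by kinesin subfamily and cyclin class, 1 point per gene, with bars for the standard error of the fit and filled points for members past an adjusted p of 0.05. The 7 KIN7 genes and 4 CYCB genes have positive estimates. Of these KIN7J (0.40 ± 0.68 SE) and CYCB1-3 (0.38 ± 0.28 SE) have low signal and are not readable. KIN14 spans -1.02 to 2.10, and the CYCD genes lie on both sides of 0.

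Other genes of division and microtubules were counted on lists chosen by name. Of 10 tubulins, the subunits of the microtubules on which kinesins run, 7 rose in P deficiency and none fell, with a median log2 change of 0.93. TUB4 (LOC4327550) was at 5780 and 5803 in P deficiency, against 1877 and 1749 in the control, a 3.18-fold rise (limma adjusted p = 0.00687). TUB8 (LOC4333632) was at 5769 and 6146 in P deficiency, against 1824 and 2110 in the control, a 3.02-fold rise (limma adjusted p = 0.00848). TUB2 and TUB6 rose by log2 changes of 1.22 and 1.11. Tubulin genes are alike in sequence, so a probe set may hold signal from its relatives. Of 5 microtubule-associated proteins 2 rose, MAP70.4 (log2 change 0.85) and MAP70.2 (log2 change 0.82), with a list median of 0.51.

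Of 26 genes of DNA replication licensing and the fork 9 rose and none fell, and the median log2 change was 0.52. The single-strand binding subunit RPA70b (LOC4332052) was at 1229 and 986 in P deficiency, against 428 and 435 in the control (log2 change 1.32, limma adjusted p = 0.0257). ORC1 (LOC4340349), of the origin recognition complex, was at 648 and 803 in P deficiency, against 299 and 290 in the control (log2 change 1.25, limma adjusted p = 0.0159). The helicase subunit MCM4 and the subunit RPA32 rose by log2 changes of 1.00 and 0.97. Of 5 H2B histones 2 rose, H2B.7 (log2 change 2.36) and H2B.11 (log2 change 1.00), but the copies of H2B are nearly identical and which copy was measured is uncertain.

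Of 11 genes named as cyclin-dependent kinases, of classes A to G, 1 rose, with a list median of -0.12, where 4.23% of all probe sets rose. The list was not limited to partners of the cyclins measured. It was CDKB2-1 (LOC4346016), of the plant-specific class that acts at mitosis, at 1742 and 1521 in P deficiency, against 702 and 650 in the control (log2 change 1.25, limma adjusted p = 0.0192). Of 6 inhibitors of these kinases 1 rose and 1 fell, with a list median of 0.38, where 4.23% of all probe sets rose and 4.05% fell. Both P-deficient arrays lay above both control arrays in 4 of the 6 and below them in 1, beside 24.3% and 26.4% of all probe sets. EL2 (LOC4331332), an inhibitor first found as an elicitor-responsive gene, was at 2854 and 2959 in P deficiency, against 7415 and 6990 in the control, and was 2.47-fold lower (limma adjusted p = 0.00908). KRP5 (LOC4331554) was at 1541 and 1449 in P deficiency, against 885 and 960 in the control (log2 change 0.69, limma adjusted p = 0.0383). The 2 retinoblastoma-related genes (median log2 change 0.43) and MYB3R-2 (0.19), a regulator of mitotic genes, did not pass.

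**Figure D3:**
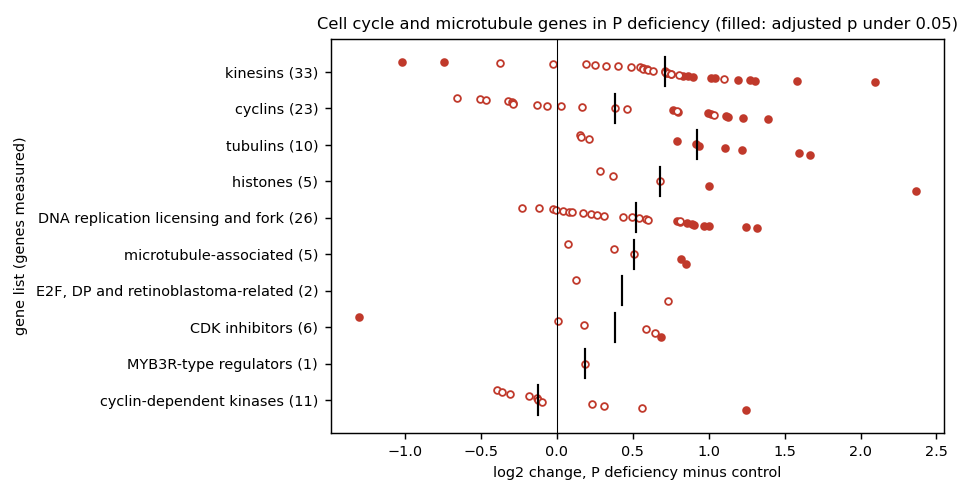
Log2 change in P deficiency against the control, 1 point per gene, for the kinesins, the cyclins and the lists of cell-cycle and microtubule genes, with filled points for genes past an adjusted p of 0.05 and a vertical tick at each median. Tubulins have the highest median at 0.93, followed by kinesins at 0.71, histones at 0.68 and DNA replication at 0.52, while the cyclin-dependent kinases centre near 0 with CDKB2-1 standing apart.

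Marker genes of cell types and tissues moved along with P deficiency in part. All 3 cellulose synthases of the xylem secondary wall rose, and their summed level was 14643 and 14632 in P deficiency, 5872 and 6426 in Fe deficiency, 12373 and 13760 with both withheld and 6374 and 6092 in the control. The 3 measured markers of the root apical meristem had no gene past the threshold (SCR1 0.13, SHR1 -0.29, WOX9 -0.44 on the log2 scale), and their summed level was 709 and 566 in P deficiency, 651 and 621 in Fe deficiency, 657 and 595 with both withheld and 753 and 774 in the control. Of the 3 endodermal and silicon-uptake genes CASP1 rose (log2 change 1.77) and Lsi1 and Lsi2 fell (-0.67 and -1.31), with a summed level of 23061 and 22371 in P deficiency, 34642 and 34991 in Fe deficiency, 23058 and 25100 with both withheld and 37445 and 34295 in the control. Of 4 photosynthetic genes LIR1 (log2 change -1.91) and rbcS (-1.54) fell. The summed level of all 4 was 30389 and 29596 in P deficiency and 40661 and 44471 in Fe deficiency. It was 33829 and 32117 with both withheld and 48393 and 45372 in the control. Most of that sum was CAB2R, which did not pass, at 26017 and 24683 in P deficiency against 33229 and 31808 in the control. RBCS1 was dim, between 1.27 and 35.3. The root hair gene CSLD1 (log2 change -0.28) and LBD6, on the list of lateral and crown root initiation, were dim and did not pass. No marker list had a summed level of 0, but LBD6, alone on its list, was at 2.32 on 1 Fe-deficient array and 4.16 on 1 control array. Such levels do not show that its tissue was detected. The part of any of these cell types in the kinesin and cyclin changes was not tested.

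In Fe deficiency alone no kinesin or cyclin passed the test. The count was 0 of 57 in either direction (limma, 7 at an unadjusted p under 0.05), where 0.124% of all probe sets were called, 0.105% higher and 0.0192% lower. With a variance trend over intensity in limma 1 member fell. The median log2 change was -0.13 for kinesins and -0.09 for cyclins. Both Fe-deficient arrays lay below both control arrays for 19 members and above them for 5, with 33 overlapping, beside 20.2% and 18.8% of all probe sets. Among probe sets at or above the median level the shares were 23% and 21.2%. KIN7D (LOC4330897) was at 1455 and 1375 in Fe deficiency, against 2033 and 1943 in the control (log2 change -0.49 ± 0.13 SE, limma adjusted p = 0.366). KIN14Q was at 97.6 and 127 in Fe deficiency, against 152 and 201 in the control (log2 change -0.58, limma adjusted p = 0.507). CYCD6-1 was at 185 and 221 in Fe deficiency, against 204 and 126 in the control, with overlapping arrays (log2 change 0.31, limma adjusted p = 0.828). Across the group means Fe deficiency was the lowest of the 4 groups for 20 of 33 kinesins and 9 of 23 cyclins. P deficiency was the highest for 28 of 33 kinesins and 12 of 23 cyclins. These orders were not counted over all probe sets and take no account of the spread between arrays. KIN14C averaged 400.9 in Fe deficiency and 401.3 in the control. Both Fe-deficient arrays lay below both control arrays in 10 of 33 kinesins and above them in 3. No gene passed in Fe deficiency on any of the lists of cell-cycle, microtubule or marker genes. H2B.7 was still at 4541 and 4268 in Fe deficiency, against 1251 and 1477 in the control (log2 change 1.68). EL2 was at 3721 and 3860 in Fe deficiency, against 7415 and 6990 in the control (-0.92). Both changes had the direction seen in P deficiency. The medians of the H2B and inhibitor lists were 0.06 and 0.03.

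Under the combined deficiency 5 members rose and 1 fell against the control, where 3.85% of all probe sets were called, 2.07% higher and 1.78% lower. The count was 1 without either P-deficient array and 0 without any one of the other 6 arrays (limma, adjusted p under 0.05), and centring arrays on their medians left 1 that rose and 1 that fell. The median log2 change was 0.45 for kinesins and 0.23 for cyclins, which were 0.17 and -0.034 with arrays centred on their medians. Both arrays of the combined deficiency were above both control arrays for 32 members and below them for 10, beside 23.5% and 25.9% of all probe sets. These shares were 29.6% and 33.3% among probe sets at or above the median level. KIN14C was at 1032 and 1066 in the combined deficiency, against 391 and 412 in the control (log2 change 1.35 ± 0.15 SE, limma adjusted p = 0.0192). CYCP4-1 was at 1486 and 1593 in the combined deficiency, against 767 and 712 in the control (log2 change 1.04 ± 0.14 SE, limma adjusted p = 0.0265). The other members that rose were KIN14I (log2 change 1.00), CYCD4-1 (0.81) and CYCB2-1 (0.79), with limma adjusted p-values of 0.0417, 0.0370 and 0.0439. KIN14M was at 1349 and 1554 in the combined deficiency, against 2795 and 2633 in the control (log2 change -0.90, limma adjusted p = 0.0401). Both comparisons so far with calls used the same control arrays. KIN14B, at 395 and 536 in the combined deficiency against 149 and 227 in the control, had a log2 change of 1.25 and did not pass (limma adjusted p = 0.0638). KIN7J (LOC4347645), a probe set of low signal, had arrays too far apart to be read. They were at 83.4 and 6.31 in the combined deficiency, against 64.7 and 91.1 in the control. Of the other lists, 4 of 10 tubulins rose (median log2 change 0.62), EL2 fell (-1.18) and none of 26 replication genes passed (median 0.44). Of the marker lists, 2 of 3 xylem secondary wall genes rose (CESA4 1.33 and CESA9 1.27 on the log2 scale), CASP1 rose (1.25) and Lsi2 fell (-0.94) among the endodermal and silicon-uptake genes, and LIR1 (-1.29) and rbcS (-1.25) fell among 4 photosynthetic genes. Their part in the members' changes was not tested.

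The effect of withholding P can also be read in roots that lacked Fe, where the group means come from 4 arrays other than those of P deficiency and the control. All 8 arrays entered 1 fit, so both comparisons share each gene's estimate of the spread. In the combined deficiency against Fe deficiency 8 members rose and none fell, where 2.26% of all probe sets were called, 1.36% higher and 0.904% lower. No member passed when any one array was left out, and 1 passed with arrays centred on their medians. The members that rose were KIN14C (log2 change 1.36 ± 0.15 SE), CYCP4-1 (1.34 ± 0.14), KIN5A (1.16 ± 0.15), CYCA3-2 (1.09 ± 0.17), KIN14F (1.03 ± 0.14), CYCB2-1 (0.92 ± 0.14), CYCD4-1 (0.91 ± 0.13) and KIN7D (0.88 ± 0.13), with limma adjusted p-values of 0.0265 to 0.0449. KIN14C stood at 1032 and 1066 in the combined deficiency, against 429 and 373 in Fe deficiency. CYCP4-1 stood at 1486 and 1593 in the combined deficiency, against 612 and 588 in Fe deficiency. KIN5A stood at 580 and 558 in the combined deficiency, against 258 and 234 in Fe deficiency. In all 3 the groups were separated by far more than either pair of arrays. Both arrays of the combined deficiency were above both Fe-deficient arrays for 37 members and below them for 7, beside 24.4% and 27.0% of all probe sets. These shares were 30.7% and 35.6% among probe sets at or above the median level. The median log2 change was 0.50 for kinesins and 0.42 for cyclins, and 0.16 and 0.15 with arrays centred on their medians. With a pseudocount of 64 that of cyclins was 0.23.

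Set side by side, the P effects with and without Fe had the same sign in 50 of 57 members, 30 of 33 kinesins and 20 of 23 cyclins. Pearson's r across the 57 genes was 0.77, a description in which genes are not independent replicates and both sets of values share the normalization, the array platform and the choice of members. All 19 members that rose with Fe supplied had a positive change without Fe, of 0.35 to 1.36 and a median of 0.88 beside 1.04 with Fe. Of these 19, 7 rose without Fe too, and in 14 the change was the smaller one. These 19 were picked for passing with Fe supplied, and such a choice by itself favours larger values there. The smaller values without Fe therefore cannot tell whether the effect was weaker. Both members that fell had negative changes without Fe, of -0.54 in KIN14M (limma adjusted p = 0.138) and -0.01 in KIN14K (limma adjusted p = 0.975). KIN7D rose without Fe and missed the threshold with Fe (log2 change 0.59, limma adjusted p = 0.0533), and the difference between its 2 changes was not past the threshold (0.28, limma adjusted p = 0.744).

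**Figure D4:**
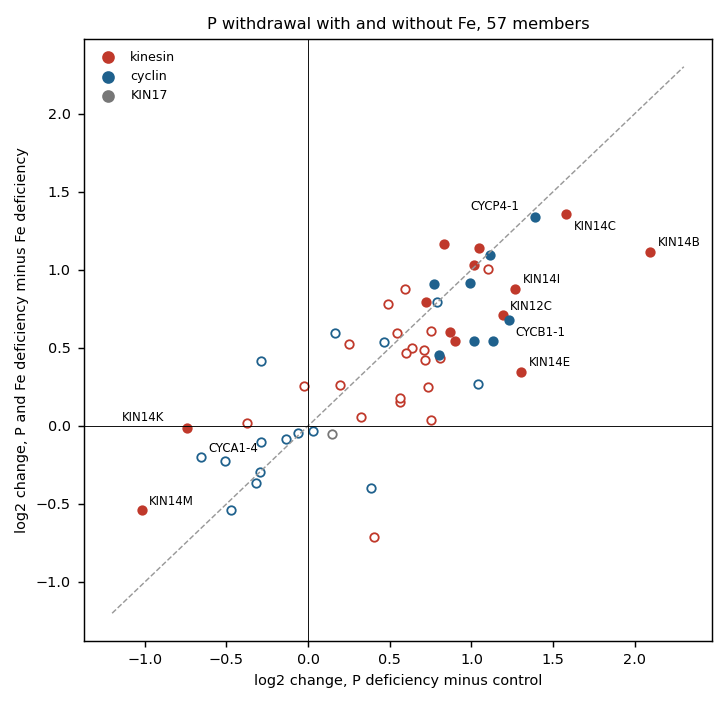
Log2 change in P deficiency minus control (horizontal) against log2 change in the combined deficiency minus Fe deficiency (vertical), 1 point per member, filled where the member passed in P deficiency against the control and with a dashed line of equal change. Most points lie in the upper right, KIN14C and CYCP4-1 near the line, and KIN14B and KIN14E well below it at changes of 2.10 and 1.31 on the horizontal axis.

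No member passed for the difference itself, the interaction of P and Fe deficiency (limma, 3 at an unadjusted p under 0.05 and 0 with a variance trend), where 0.0402% of all probe sets were called, 0.00699% higher and 0.0332% lower. The largest interactions among the members that passed elsewhere were -0.98 ± 0.37 SE in KIN14B (limma adjusted p = 0.529) and -0.96 ± 0.35 SE in KIN14E (limma adjusted p = 0.518). For KIN14B the P-deficient arrays were at 823 and 854, those of the combined deficiency at 395 and 536, those of Fe deficiency at 182 and 229 and those of the control at 149 and 227. With 2 arrays per group the test is coarse, and a p above the threshold does not show that the effects were alike.

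Withholding Fe from roots that already lacked P gave no call in either direction (limma, 10 at an unadjusted p under 0.05), where 0.0315% of all probe sets were called, 0.0227% higher and 0.00874% lower. With a variance trend 1 member fell. The arrays leaned toward lower values. Both arrays of the combined deficiency lay below both P-deficient arrays for 32 of 57 members and above them for 3, beside 21.5% and 20.3% of all probe sets. Among probe sets at or above the median level the shares were 25.7% and 23.9%. Among kinesins 21 of 33 were below and 2 above, with a median log2 change of -0.24, and among cyclins 11 of 23 were below and 1 above, with a median of -0.08. The log2 changes of KIN14B and KIN14E were -0.84 ± 0.26 SE (limma adjusted p = 0.367) and -0.68 ± 0.25 SE (limma adjusted p = 0.442). KIN12C was at 1112 and 1070 in the combined deficiency, against 1684 and 1527 in P deficiency, and CYCA2-1 at 837 and 986 in the combined deficiency, against 1351 and 1365 in P deficiency. These pairs were well apart, yet neither passed when p-values were adjusted over all probe sets. CYCD4-1, at 2100 and 2298 in the combined deficiency against 2140 and 2112 in P deficiency, and KIN7K, at 1655 and 1507 against 1545 and 1690, overlapped.

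**Figure D5:**
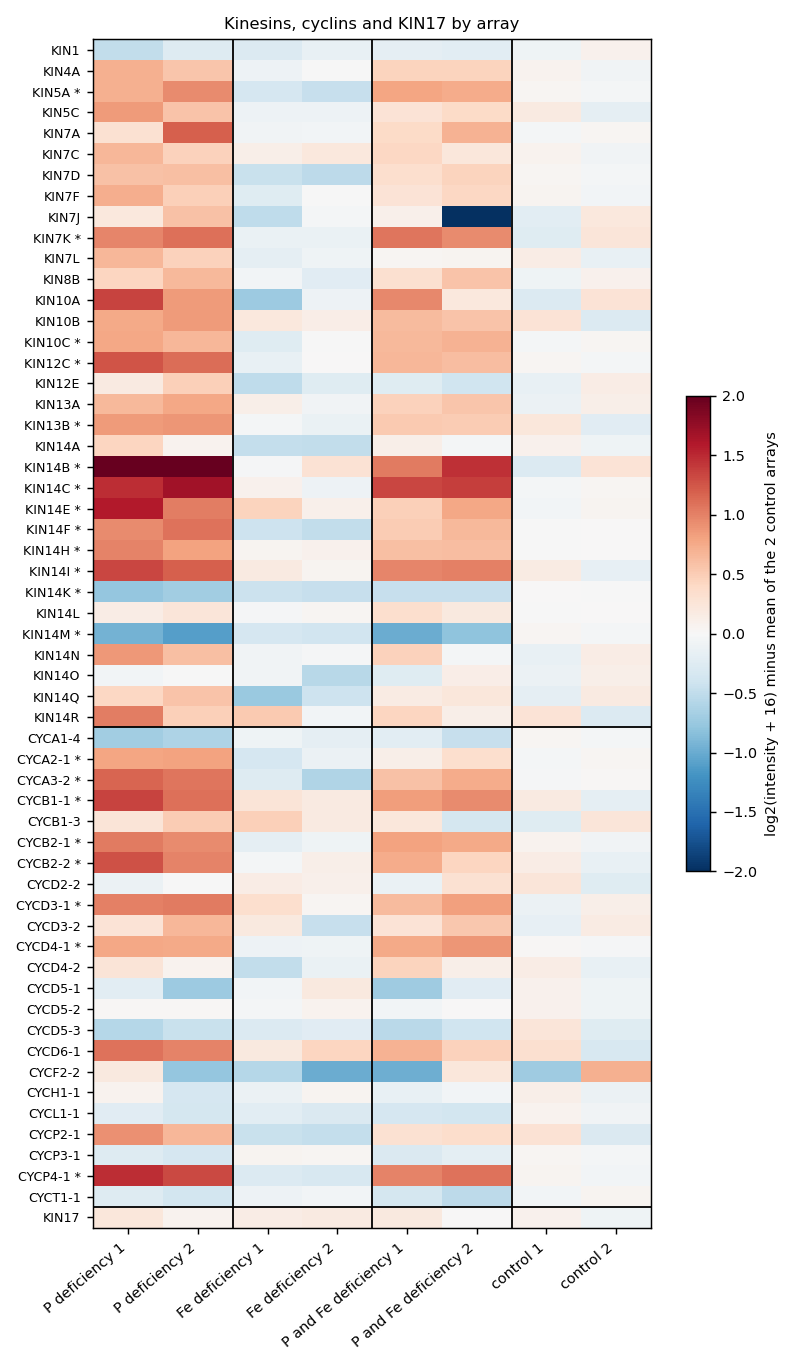
Log2 level of each member on each of the 8 arrays minus its mean over the control arrays, with kinesins and cyclins ordered by subfamily and class, an asterisk on members that passed in P deficiency against the control, and colours capped at 2 in either direction. The P-deficient arrays are the most strongly raised, those of the combined deficiency less so, and KIN14M, KIN14K and CYCA1-4 are lower in P deficiency.

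Outside the members, the named genes with array profiles most like the mean of the 21 that passed in P deficiency were peroxidase (LOC4339222), OsSPS2 (LOC9267741) and KOB1 (LOC4331148), each with Pearson's r of 0.998 over the 8 arrays among 2395 named genes searched. The arrays differ foremost by P supply, and any gene that follows that split has a high r over them. The peroxidase probe set was at 11928 and 11950 in P deficiency and 2005 and 2010 in Fe deficiency. It was at 7183 and 7216 with both withheld and 2505 and 2525 in the control. Most kinesins had the same highest and lowest group by their means, although many had Fe-deficient arrays that overlapped the control.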

How the data were processed

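Total RNA from rice roots was hybridised to 8 Affymetrix rice arrays. The authors deposited 1 linear intensity per probe set and array, made with Affymetrix Expression Console 1.1 per the submitters' processing notes; the summarization method and the array's genome build are not given in the sources used here. Trimmed means of the deposited intensities lay between 496.9 and 497.7 on every array, so the deposited intensities had been scaled to a common level.

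Control probe sets were left out and 57194 were tested. Intensities were quantile-normalized, transformed as log2(intensity + 16) and fitted with limma 3.58.1 in R 4.3.3, with 1 mean per group over all 8 arrays (4 residual and 1.74 prior degrees of freedom) and Benjamini-Hochberg adjustment over all 57194 probe sets at 0.05. Fold changes are on that log2 scale and understate the change of dim genes. The number of arrays, 2 per group, limits the precision.

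Names came from the platform annotation, updated through a RefSeq gene table of a japonica assembly, whereas the plants were Indica. Of the probe sets tested 22436 had 1 gene, 95 several and 34663 none. No sequences or coordinates were used here. HTAS and TUBC matched the histone and tubulin name patterns but were dropped as neither.

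The members and lists were chosen with earlier results of these data known. The text names members past the threshold in any comparison, the brightest member of each subfamily and class, the 2 largest changes each way per comparison, members whose probe sets disagree, up to 4 genes per list, and the 3 most alike named genes; other members were added after their values were seen (KIN7A, KIN12E, KIN10A, KIN7C, CYCP2-1 and CYCD5-3) for their known roles or to complete a class. The procedure was tested on simulated data. Alternatives were no quantile normalization, median centring, pseudocounts of 1 and 64, leaving out dim probe sets, a variance trend, the mean of a gene's probe sets, a replicate block, fitting only the groups compared, and leaving out each array.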

Additional observations from a re-analysis of the deposited data

Results flagged for a closer look

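In 7 members the arrays with Fe withheld differed in one direction where P was supplied and in the opposite direction where P was withheld, with no overlap of arrays in either case. Of all probe sets 7.61% had this pattern. The interaction was tested in limma and none passed, so no member is shown to differ. With Fe withheld, CYCB1-1 was higher where P was supplied (log2 change 0.22) and lower where it was not (-0.33), an interaction of -0.55 (limma adjusted p = 0.634). KIN14E had changes of 0.28 and -0.68 in the same order and an interaction of -0.96 (limma adjusted p = 0.518). KIN14H had 0.07 and -0.28, with an interaction of -0.35 (limma adjusted p = 0.691), and KIN7C had 0.17 and -0.24, with an interaction of -0.41 (limma adjusted p = 0.681). The opposite order, lower with P supplied and higher without it, was seen in CYCA1-4 (-0.13 and 0.32, interaction 0.45, limma adjusted p = 0.626), KIN1 (-0.21 and 0.18, interaction 0.39, limma adjusted p = 0.693) and KIN14K (-0.45 and 0.28, interaction 0.73, limma adjusted p = 0.349). No member had opposite, non-overlapping effects of P deficiency with and without Fe. Groups of 2 arrays are too small to be tested for outlying arrays.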

How the results depend on the processing

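Counts of members called moved widely with the settings. For P deficiency against the control, beside 21 with the settings used, limma called 12 with arrays centred on their medians, 34 with dim probe sets left out, 35 with a variance trend, 9 with the replicate block and 0 with only the groups compared (33 at an unadjusted p under 0.05). The pseudocounts of 1 and 64 gave 14 and 31. For the combined deficiency against the control, beside 6, the counts in that order were 2, 21, 23, 0 and 0 (18 unadjusted), with 1 at a pseudocount of 1 and 16 at 64. For the combined deficiency against Fe deficiency, beside 8, they were 1, 22, 26, 0 and 0 (28 unadjusted), with 0 at a pseudocount of 1 and 14 at 64. Fe deficiency against the control and the combined deficiency against P deficiency gave 1 each with a variance trend and 0 otherwise. Leaving out 1 array at a time gave 0 to 11, 0 to 1 and 0 to 0 in the first 3 comparisons. Centring made 32.8% of all calls in P deficiency higher ones, against 51.03% with the settings used, 29.7% against 53.8% in the combined deficiency against the control and 27.6% against 60.02% against Fe deficiency. The median change of cyclins in the combined deficiency against the control turned to -0.034 with centring, beside 0.23, and no other median of kinesins or cyclins in the comparisons that had calls reversed. Apart from leaving out single arrays, the settings included the fit of only the groups compared, which drops the other arrays. Over them the medians of kinesins and of cyclins lay between 0.46 and 0.72 and between 0.21 and 0.57 in P deficiency. They lay between 0.17 and 0.46 and between -0.034 and 0.28 in the combined deficiency against the control. Against Fe deficiency they lay between 0.16 and 0.50 and between 0.15 and 0.47. Of the calls of single members, 211 kept direction and threshold over these settings and 104 lost the threshold. Of the 104, 35 were lost in the fit of only the groups compared. No sign turned in these settings or when 1 array was left out. Deviations of same-numbered arrays correlated between -0.0173 and 0.0172 over all probe sets. That gives no sign of pairing over the probe sets as a whole, but it cannot exclude pairing in part of the genes. Whether a call lost under the replicate block marks a weaker effect was not tested. Probe sets such as CYCF2-2, CYCB1-3 and KIN7J have too little signal over background for an order across groups. The causes of these differences were not tested.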
